A study of Mus musculus with 4 samples.

Results

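The genes described are 10 receptors through which leukocytes hold on to other cells and to the matrix, taken as the rows of the deposited FPKM table whose gene name is Itgal, Itgam, Itgb2, Itga4, Itga5, Itga6, Itgav, Itgb1, Icam1 or Cd44. All 10 were found among 24473 genes in that table, each in 1 row. Expression was measured by RNA sequencing in 4 libraries of BV-2, an immortalised mouse microglial cell line used as a model of the resident macrophages of the brain. In the 2 knockdown libraries (titled sh s1 and sh s2) the genotype is SIX2 knockdown, SIX2 being a homeodomain protein that regulates transcription, and in the 2 control libraries (sh c1 and sh c2) the genotype is WT. Cells of both groups had been given lipopolysaccharide (LPS, the bacterial cell wall component sensed by TLR4) at 100 ng/mL for 24 h, so no library shows these genes without LPS. Both groups carry the prefix sh in their titles, so WT may not mean unmodified cells, and the labels do not say whether a line was 1 clone or whether replicates were separate cultures. The p-values therefore measure the spread between these libraries only, which may be technical.

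Integrins are pairs of an alpha and a beta chain, and a chain reaches the cell surface only together with a partner. The beta 2 chain (Itgb2, CD18) is made by leukocytes and pairs with alpha L (Itgal) into LFA-1, which binds ICAM-1, and with alpha M (Itgam, CD11b) into the complement receptor Mac-1. The beta 1 chain (Itgb1) is made by most cells and pairs with alpha 4, alpha 5, alpha 6 and alpha V into receptors for VCAM-1 and fibronectin, for fibronectin, for laminin and for RGD-containing matrix proteins. ICAM-1 (Icam1) is the counter-receptor of LFA-1 and Mac-1 and an NF-kB target, and CD44 is the main hyaluronan receptor. In microglia Mac-1 is a standard identity marker and takes part in the uptake of complement-coated material.

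The libraries held 74712717 and 64265336 estimated counts in knockdown cells and 75672836 and 60956299 in controls. Low values peaked at multiples of 4, which made up 42.1% to 47.2% of nonzero values up to 20 counts in a library. From this, 1 sequenced fragment was taken to stand for about 4 counts, which was not tested. The targeted gene had a count of 0 in all 4 libraries and gives no check of the labels. Of 12 microglia and macrophage markers 0 were at or under the floor of 12 counts (3 fragments) in all 4 libraries, and their summed level was 1837 to 1886 CPM (counts scaled to library size) in knockdown and 2029 to 2062 CPM in control libraries. Of the 11 tested markers, Aif1, Csf1r and Adgre1 fell, with log2 fold changes of -1.04, -0.48 and -0.63 (adjusted p = 0.044, 0.0426 and 0.0198 by edgeR). P2ry12, which marks microglia in tissue, was at 0 counts in both knockdown libraries and at 24 and 4 counts in controls. The 8 neutrophil markers, which matter here because neutrophils also make beta 2 integrins, summed to 16.03 to 22.1 CPM in knockdown and 30.1 to 32.6 CPM in control libraries, mostly from Csf3r, while Ly6g and Elane did not exceed the floor in any library. Summed markers of neurons ranged from 0 to 4.09 CPM in knockdown and from 7.83 to 7.98 CPM in control libraries, those of oligodendrocytes from 0.316 to 8.53 and from 14.4 to 15.4 CPM, and those of astrocytes from 2.13 to 3.78 and from 6.34 to 7.499 CPM. Lymphocyte markers reached 0.270 CPM at most in knockdown and 0.472 CPM in control libraries. Markers of fibroblasts and mural cells summed to 3.03 to 4.50 and 5.03 to 6.21 CPM, and endothelial markers, nearly all of it Kdr, to 222 to 236 and 224 to 227 CPM. The part of these traces in the values below was not tested. The labels name only BV-2 cells, and the source of these traces was not tested. In bulk RNA, fewer cells of a type and less RNA per cell cannot be told apart.

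To show the regulatory sequence in front of genes that lay on opposite sides of 0, and of the classical LPS-induced member, promoter windows are printed for Itga4, Cd44 and Icam1. They come from RefSeq on GRCm38.p6, 250 bases before to 50 bases after the RefSeq start, 5′ to 3′ on the gene's strand. Windows were found for 7 of the 10 genes, not for Itgal, Itgb2 and Itga6. The windows are chr2:79255176-79255475 (plus strand) for Itga4, chr2:102901616-102901915 (minus strand) for Cd44 and chr9:21015690-21015989 (plus strand) for Icam1. Capitals mark every match, on either strand, to 7 motifs chosen after the sequences were seen.
Itga4: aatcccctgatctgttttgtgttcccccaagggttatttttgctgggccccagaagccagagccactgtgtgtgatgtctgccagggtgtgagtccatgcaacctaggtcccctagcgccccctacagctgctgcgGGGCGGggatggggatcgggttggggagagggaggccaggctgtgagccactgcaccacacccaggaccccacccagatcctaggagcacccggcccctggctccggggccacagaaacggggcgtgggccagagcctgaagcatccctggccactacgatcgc
Cd44: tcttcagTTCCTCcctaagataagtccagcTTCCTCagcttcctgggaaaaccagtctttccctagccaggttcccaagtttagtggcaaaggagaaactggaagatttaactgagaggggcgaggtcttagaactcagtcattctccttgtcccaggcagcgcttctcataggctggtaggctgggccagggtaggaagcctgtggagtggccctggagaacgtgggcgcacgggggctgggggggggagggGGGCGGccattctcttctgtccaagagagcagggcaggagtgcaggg
Icam1: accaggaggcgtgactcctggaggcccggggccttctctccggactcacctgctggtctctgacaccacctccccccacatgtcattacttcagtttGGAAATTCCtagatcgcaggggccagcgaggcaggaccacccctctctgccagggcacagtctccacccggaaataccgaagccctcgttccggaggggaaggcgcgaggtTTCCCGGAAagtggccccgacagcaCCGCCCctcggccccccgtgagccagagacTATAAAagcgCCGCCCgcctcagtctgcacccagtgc

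The motifs were TCAGGTTTC (the MEF3 sequence, bound by the protein family of SIX2), TGATAC (a core sequence of the same family), GAGGAA (Ets and PU.1 type), GGAANTTCC (NF-kB type), TTCCNGGAA (STAT type), GGGCGG (the GC box) and TATAAA (the TATA box), and no match overlapped another. Neither of these first motifs was found in the 7 windows; of all 32851 windows, 0.429% held TCAGGTTTC and 5.46% held TGATAC, so few matches could occur in 7 windows. The Icam1 window held the NF-kB type motif, the STAT type motif and a TATA box, none of which was in the other 6; of all windows 0.928%, 1.15% and 13.6% held them. The TATA box began 32 bases before the start of Icam1 in the deposited table, which lies downstream of the RefSeq start. GAGGAA was in 5 of 7 windows (Itgav, Cd44, Itgam, Itgb1 and Itga5), against 28.3% of all windows, and GGGCGG in all 7, against 35.7%. A match describes letters only, and its absence from a window says nothing about binding of a factor.

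All 10 genes were expressed in every library and passed the filter on low counts. None passed the test of knockdown against control. By edgeR's quasi-likelihood test with Benjamini-Hochberg adjustment over 15733 genes, 0 of the 10 had an adjusted p under 0.05, against 0.953% of all genes tested (0.407% higher and 0.547% lower). At an unadjusted p under 0.05 there were 3, against 14.2% of all genes (7.52% higher and 6.7% lower): Itgb2 and Itga4 with lower and Cd44 with higher values in knockdown cells. DESeq2 called 2 of the 10, Itgb2 and Itga4, against 5.22% of the 15427 genes to which it gave an adjusted p. Limma-voom called 0 of the 10, against 0.413% of all genes. The libraries of both groups did not overlap for 7 of the 10, 2 with knockdown higher and 5 with knockdown lower, and the same held for 47.6% of all genes, 23.8% in each direction. The median log2 fold change of the 10 was -0.10 and that of all genes -0.01, with single values from -0.44 (Itgb2) to 0.21 (Cd44).

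**Figure D1:**
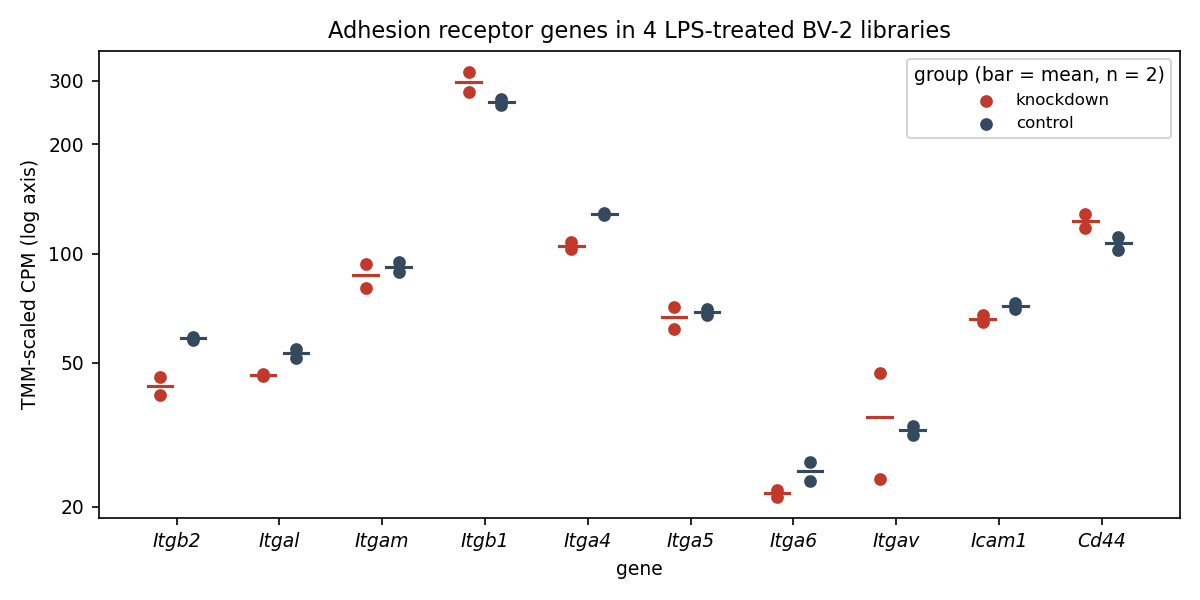
TMM-scaled CPM (log axis) of the 10 genes in each library, knockdown in red and control in blue, with points for single libraries and bars for the mean of 2. Both knockdown points lie below both control points for Itgb2, Itgal, Itga4, Itga6 and Icam1 and above them for Itgb1 and Cd44, while the 2 knockdown points of Itgav are 46.8 and 23.9 CPM.

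Among Itgb2, Itgal and Itgam, the shared chain Itgb2 had the log2 fold change furthest from 0. Itgb2 (ENSMUSG00000000290, chromosome 10, 77530252 to 77565686, plus strand, coordinates of the deposited table, which fit GRCm38) had 45.6 and 40.6 CPM in knockdown libraries, against 57.8 and 59.0 CPM in controls. The groups did not overlap, and the distance between them exceeded that between replicates. Its log2 fold change was -0.44 ± 0.10 (SE, 95% interval -0.67 to -0.21), a fold of 0.739, with an unadjusted p of 0.00288 and an adjusted p of 0.113 by edgeR. With DESeq2 the adjusted p was 0.00709 for a log2 fold change of -0.45. On the FPKM scale, which is per gene length, Itgb2 averaged 12.5 ± 1.07 FPKM in knockdown and 17.4 ± 0.387 FPKM in control libraries (SD, n = 2 each).

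Itgal (ENSMUSG00000030830, chromosome 7, 127296260 to 127335138, plus strand), the LFA-1 alpha chain, had 46.5 and 46.0 CPM in knockdown libraries and 54.6 and 51.4 CPM in controls. The groups did not overlap, but the log2 fold change of -0.20 ± 0.09 (SE) had a 95% interval from -0.41 to 0.01 and an adjusted p of 0.390 by edgeR. Itgam (ENSMUSG00000030786, chromosome 7, 128062640 to 128118491, plus strand), which encodes the microglial marker CD11b, had 93.7 and 80.5 CPM in knockdown libraries and 89.2 and 94.9 CPM in controls. Here the groups overlapped, and the log2 fold change of -0.08 ± 0.10 (SE) had a 95% interval from -0.31 to 0.16. Its adjusted p was 0.786 by edgeR, and without knockdown replicate 2 its log2 fold change was 0.03. The gene model Gm49368 overlaps Itgam on the same strand and had 0 counts in each library. How reads were divided between overlapping models is not known. Same-strand models also overlap Itga5 (Mir6963, 1 and 1 counts in knockdown libraries and 0 and 2 in controls) and Itga6 (Gm13663 and Gm13662, 0 counts in each library).

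Per gene length there was about as much Itgam as Itgb2 transcript in controls and more Itgam than Itgb2 transcript in knockdown cells. Itgam itself was not higher in knockdown cells, with a mean of 15.4 FPKM against 16.7 FPKM in controls. The ratio of Itgam to Itgb2 FPKM was 1.25 and 1.20 in knockdown libraries, against 0.938 and 0.978 in controls. For Itgal to Itgb2 it was 0.473 and 0.525 in knockdown libraries, against 0.439 and 0.405 in controls. The summed alpha L and alpha M transcripts stood at 1.72 and 1.73 times Itgb2 in knockdown libraries, against 1.38 in both controls. In each of these ratios the groups did not overlap. All of them share the denominator Itgb2, whose own groups did not overlap, so they are not separate observations. Among all single genes tested, the groups did not overlap for 47.6%. The two-sided exact permutation p was 0.333 for each ratio, the smallest that 2 libraries against 2 can give, so none can pass 0.05. In all, 12 ratios were computed. These are transcript ratios and do not give the amount of paired protein.

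**Figure D2:**
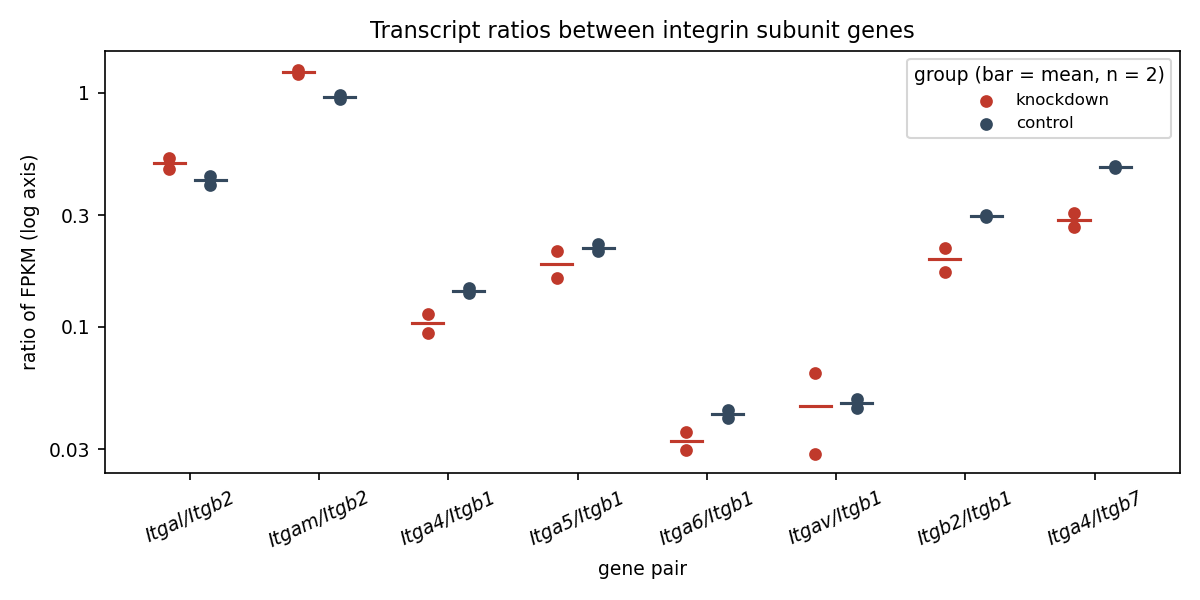
Ratios of FPKM between integrin subunit genes (log axis) in each library, knockdown in red and control in blue, bars at the mean of 2. The knockdown points lie above the control points for Itgal/Itgb2 and Itgam/Itgb2 and below them for Itga4/Itgb1, Itga6/Itgb1, Itgb2/Itgb1 and Itga4/Itgb7.

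The beta 1 chain was the most abundant of the 10 genes and lay on the other side of 0 from Itgb2. Itgb1 (ENSMUSG00000025809, chromosome 8, 128685654 to 128733200, plus strand) had 280 and 317 CPM in knockdown libraries, against 257 and 268 CPM in controls. Both knockdown libraries were above both controls. The log2 fold change was 0.19 ± 0.08 (SE, 95% interval -0.01 to 0.38), with an adjusted p of 0.381 by edgeR. The ratio of Itgb2 to Itgb1 FPKM was 0.218 and 0.171 in knockdown libraries and 0.30 and 0.295 in controls, a mean of 0.195 against 0.298, with no overlap and again the smallest possible exact permutation p of 0.333.

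Of the 4 alpha chains among the 10 genes that pair with beta 1, Itga4 had the lowest unadjusted p. Itga4 (ENSMUSG00000027009, chromosome 2, 79255426 to 79333123, plus strand), the chain of the VCAM-1 and fibronectin receptor VLA-4, had 108 and 103 CPM in knockdown libraries, against 129 and 128 CPM in controls. The replicates of each group lay close together and the groups apart. Its log2 fold change was -0.29 ± 0.07 (SE, 95% interval -0.47 to -0.11), a fold of 0.818, with an unadjusted p of 0.00633 and an adjusted p of 0.162 by edgeR. With DESeq2 the adjusted p was 0.0143. The ratio of Itga4 to Itgb1 FPKM was 0.113 and 0.0945 in knockdown libraries, against 0.147 and 0.139 in controls.

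Itga5 (ENSMUSG00000000555, chromosome 15, 103344286 to 103366763, minus strand), of the fibronectin receptor, averaged 66.7 ± 6.52 CPM in knockdown and 69.1 ± 1.75 CPM in control libraries (SD, n = 2 each). The groups overlapped, with a log2 fold change of -0.05 (95% interval -0.28 to 0.18) that turned to 0.05 without knockdown replicate 2. Itga6 (ENSMUSG00000027111, chromosome 2, 71745616 to 71858416, plus strand), of the laminin receptor, averaged 21.8 ± 0.676 CPM in knockdown and 25.1 ± 2.10 CPM in control libraries. Its groups did not overlap, and its log2 fold change was -0.20 ± 0.12 (SE, adjusted p = 0.516 by edgeR).

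Itgav (ENSMUSG00000027087, chromosome 2, 83724397 to 83806916, plus strand), the alpha chain of RGD receptors that also activate latent TGF-beta, was the least settled of the 10. It had 46.8 and 23.9 CPM in knockdown libraries, against 33.5 and 31.6 CPM in controls. One knockdown library was above both controls and the other below, a distance between replicates of 0.97 on the log2 scale. The log2 fold change of 0.12 ± 0.38 (SE) had a 95% interval from -1.0 to 1.24, and it was -0.45 without knockdown replicate 1 and 0.53 without knockdown replicate 2. No direction can be given for Itgav.

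ICAM-1 and CD44, the members outside the integrin family, lay on opposite sides of 0 and neither passed. Icam1 (ENSMUSG00000037405, chromosome 9, 21015985 to 21028817, plus strand) had 67.6 and 64.6 CPM in knockdown libraries, against 70.4 and 73.1 CPM in controls. The groups did not overlap, but the distance was small: the log2 fold change was -0.12 ± 0.08 (SE, 95% interval -0.31 to 0.08), with an adjusted p of 0.594 by edgeR. Cd44 (ENSMUSG00000005087, chromosome 2, 102811141 to 102901665, minus strand) had 128 and 118 CPM in knockdown libraries, against 102 and 111 CPM in controls. Both knockdown libraries were above both controls, with a log2 fold change of 0.21 ± 0.09 (SE, 95% interval 0.00 to 0.41), an unadjusted p of 0.0479 and an adjusted p of 0.345 by edgeR. Cd44 is spliced into standard and variant forms. The deposited table lists 7 transcripts for it in 1 row, so its forms were not told apart.

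**Figure D3:**
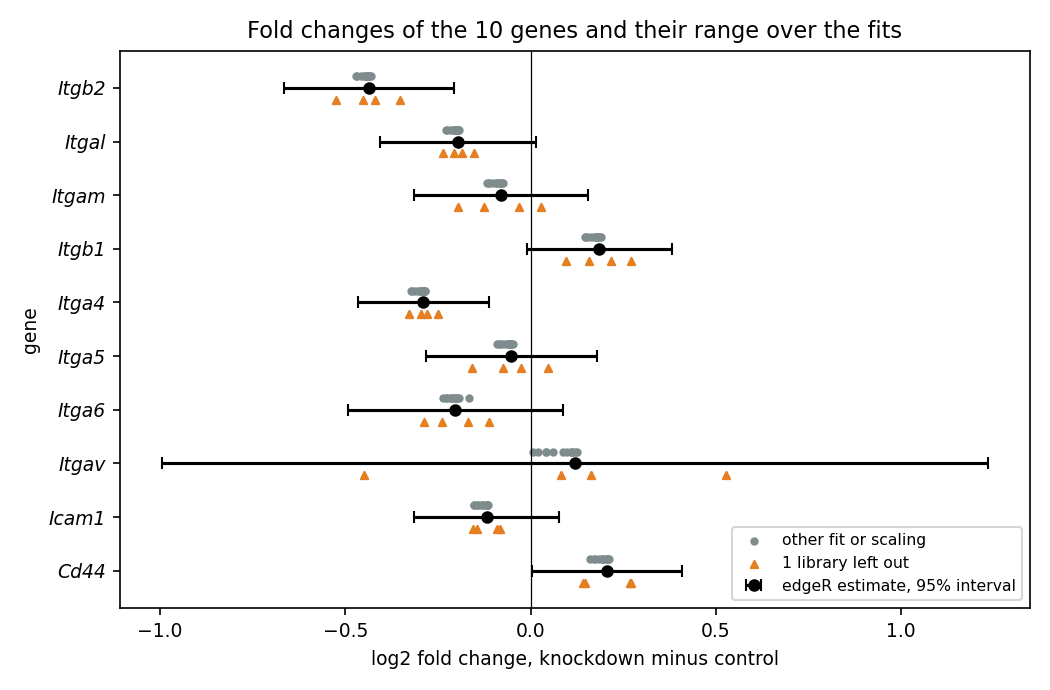
Log2 fold change, knockdown minus control, of the 10 genes, with the edgeR estimate and 95% interval in black, the same quantity in other fits and scalings in grey and with 1 library left out as orange triangles. The intervals of Itgb2, Itga4 and Cd44 lie on 1 side of 0 before adjustment over all genes, and that of Itgav runs from -1.0 to 1.24.

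Ranked per gene length, Itgb1 stood first in both groups, with 64.9 FPKM in knockdown and 58.4 FPKM in control libraries. Itgb2 took rank 5 in both knockdown libraries, against rank 2 in both controls. Cd44 took rank 2 in both knockdown libraries, against rank 5 in both controls. The order of means in knockdown cells ran Itgb1, Cd44, Itgam, Icam1, Itgb2, Itga5, Itga4, Itgal, Itgav and Itga6, and the neighbours Cd44 and Itgam, Icam1 and Itgb2, Itgb2 and Itga5, and Itgav and Itga6 overlapped between libraries. In controls it ran Itgb1, Itgb2, Itgam, Icam1, Cd44, Itga5, Itga4, Itgal, Itgav and Itga6, with overlap between Itgb2 and Itgam and between Icam1 and Cd44. Itga6, at 2.11 FPKM in knockdown and 2.49 FPKM in control libraries, and Itgav, at 2.92 and 2.75 FPKM, were the lowest in both. Since the deposited lengths of transcripts in use are not known, differences between neighbours are approximate.

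Of the remaining integrin chains averaging at least 1 CPM, Itgb7 had the highest level, also per gene length; it is the beta chain that pairs with alpha 4 in the gut-homing receptor of lymphocytes. Of 18 other subunit genes, 9 passed the filter on low counts and 0 were called by edgeR. At an unadjusted p under 0.05, 1 was higher and 2 were lower, against 14.2% of all genes in either direction. Limma-voom called 0 and DESeq2 called 2, 1 in each direction, against 5.22% of all genes for DESeq2. Their median log2 fold change was 0.02, against -0.01 for all genes. Itgb7 had 80.1 and 66.3 CPM in knockdown libraries, against 52.9 and 53.3 CPM in controls. Both knockdown libraries were above both controls, with a log2 fold change of 0.46 ± 0.11 (SE, 95% interval 0.20 to 0.72), an unadjusted p of 0.0041 and an adjusted p of 0.134 by edgeR. The ratio of Itga4 to Itgb7 FPKM was 0.267 and 0.307 in knockdown libraries and 0.484 and 0.475 in controls.

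Itgb5, a partner of alpha V, averaged 31.2 ± 0.683 CPM in knockdown and 32.8 ± 1.48 CPM in control libraries (SD, n = 2 each). Itga7, of a laminin receptor, averaged 18.6 ± 1.11 CPM in knockdown and 16.3 ± 0.553 CPM in control libraries, and Itga9 averaged 5.24 ± 0.0337 and 6.32 ± 0.617 CPM. Itgax, the CD11c chain of complement receptor 4 and a partner of beta 2, averaged 1.11 ± 0.248 CPM in knockdown and 1.09 ± 0.1002 CPM in control libraries. Itga10, named after its values were seen, had 0 counts in both knockdown libraries, against 58 and 33 counts in controls. Its adjusted p was 0.107 by edgeR. The control mean was 3.68 times the floor of 12 counts in knockdown libraries, on the TMM-scaled CPM. That value leaves out the error of the control counts. Itga10 overlaps another gene model on the same strand, which makes those few counts uncertain.

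Of 34 listed genes that switch integrins on or couple them to the cytoskeleton, 29 were tested and 0 were called by edgeR; the unadjusted p was under 0.05 for 6 with higher and 3 with lower values, against 14.2% of all genes, with a median of -0.02 for the log2 fold change, 13 values above 0 and 16 below. Limma-voom called 0, and DESeq2 called 3, 1 higher and 2 lower, against its 5.22% of all genes. The most abundant was Flna, the actin crosslinker that binds beta tails, with 648 ± 10.1 CPM in knockdown and 562 ± 24.8 CPM in control libraries (SD, n = 2 each, adjusted p = 0.251 by edgeR). Rap1b, the small GTPase upstream of talin, had 353 ± 8.31 CPM in knockdown and 350 ± 6.59 CPM in control libraries, and the focal adhesion adaptor Parvg 251 ± 3.55 and 264 ± 13.0 CPM.

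Fermt3, Tln1 and Parvb were named after their values were seen. Fermt3 encodes kindlin-3, the leukocyte activator that binds beta 2 and beta 1 tails, and had 212 and 197 CPM in knockdown libraries, against 272 and 253 CPM in controls. The groups did not overlap, and the log2 fold change of -0.36 ± 0.08 (SE, 95% interval -0.54 to -0.17) had an unadjusted p of 0.00263 and an adjusted p of 0.110 by edgeR. Tln1, which encodes talin, had 221 and 192 CPM in knockdown libraries and 201 and 203 CPM in controls, so its groups overlapped. Parvb, another focal adhesion adaptor, had 99.3 and 87.7 CPM in knockdown libraries and 73.2 and 63.3 CPM in controls, with a log2 fold change of 0.45 ± 0.11 (SE, adjusted p = 0.134 by edgeR).

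Of the 31 integrin ligands and counter-receptors other than Icam1, 15 were tested and 0 were called by edgeR, against 0.953% of all genes. The unadjusted edgeR p was under 0.05 for 2 with higher and 0 with lower values, against 7.52% and 6.7% of all genes. Limma-voom called 0 and DESeq2 called 1, against 0.413% and 5.22% of all genes. The median log2 fold change was 0.01. Spp1, osteopontin, which binds alpha V and alpha 4 integrins, had 3693 ± 382 CPM in knockdown and 3496 ± 197 CPM in control libraries (SD, n = 2 each). The alpha V ligand Mfge8, a bridge to dying cells, had 237 ± 9.07 and 235 ± 2.54 CPM, and the laminin chain Lamc1 151 ± 5.55 and 148 ± 1.11 CPM. For each of these 3 genes the means differed by less than the SD of the knockdown libraries. The fibrinogen chains Fga, Fgb and Fgg, which form a Mac-1 ligand, had 84, 91 and 54 counts in knockdown replicate 2 and 0 in the other 3 libraries; they were named after their values were seen and did not pass the filter on low counts, having counts in 1 library only.

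The hyaluronan, CD44 and selectin list held 28 genes, of which 16 were tested and 0 were called by edgeR, against 0.953% of all genes. The unadjusted edgeR p was under 0.05 for 0 with higher and 2 with lower values, against 7.52% and 6.7% of all genes. Limma-voom called 0 and DESeq2 called 1, against 0.413% and 5.22% of all genes. The median log2 fold change was 0.01. Msn, moesin, which ties CD44 and ICAM-1 to actin, had 732 ± 3.42 CPM in knockdown and 716 ± 0.875 CPM in control libraries (SD, n = 2 each, log2 fold change 0.03, 95% interval -0.12 to 0.18). Its relative Rdx, radixin, had 213 ± 13.5 CPM in knockdown and 183 ± 25.9 CPM in control libraries, and the sheddase gene Adam17 180 ± 16.7 and 206 ± 25.6 CPM. Selplg and Stab1, the 2 genes with an unadjusted edgeR p under 0.05, were named after their values were seen. Selplg, the P-selectin ligand PSGL-1, had 80.7 and 75.8 CPM in knockdown libraries and 89.5 and 100 CPM in controls. Its log2 fold change was -0.28 ± 0.09 (SE, adjusted p = 0.247 by edgeR). Stab1 had 21.8 and 21.9 CPM in knockdown libraries and 32.1 and 28.3 CPM in controls. Its log2 fold change was -0.47 ± 0.12 (SE, adjusted p = 0.159 by edgeR).

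**Figure D4:**
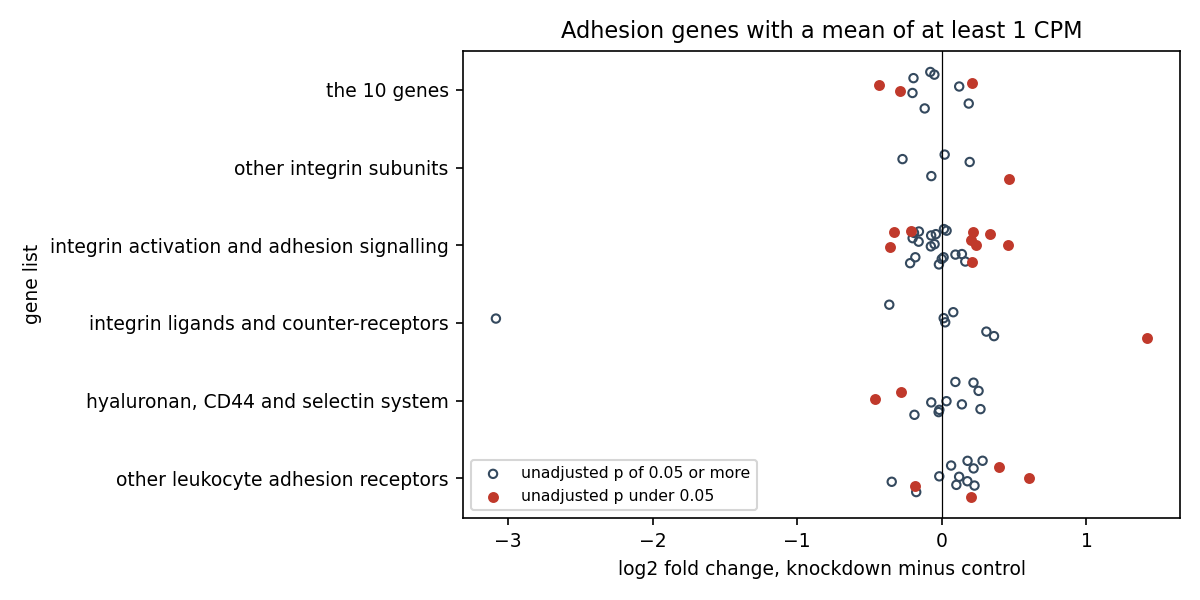
Log2 fold change, knockdown minus control, of adhesion genes averaging 1 CPM or more, 1 row a list, filled red where the unadjusted edgeR p was under 0.05. Of the 10 genes 3 are filled, and of 27 activation and signalling genes 9, on both sides of 0; no gene shown had an adjusted p under 0.05.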

How the data were processed

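BV-2 RNA was sequenced after LPS in 2 knockdown and 2 control libraries, grouped by genotype. The deposited estimated counts are whole numbers per gene, not normalised, so rounding changed nothing; the deposited FPKM values were normalised by the authors for gene length and depth, per the file headers. Bowtie 0.12.2 and build mm8 are named in the submitters' processing notes; the counting program, and whether it used the strand, are not given in the sources used here. Of 24422 genes compared, 21093 (86.4%) had the coordinates of GENCODE M21 on GRCm38, 9 of the 10 genes described among them, and Itgb2 differed in its end only. Another 12 columns matched no labelled sample and were not used.

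The count test used edgeR 4.0.16 (R 4.3.3) after filterByExpr and TMM scaling, with a robust quasi-likelihood fit and a two-sided F test, adjusted by Benjamini-Hochberg over 15733 genes with a threshold of 0.05. Log2 fold changes are for knockdown minus control, and CPM are TMM-scaled. No covariate was used. The floor of 3 fragments, or 12 counts, stood for 0.157 to 0.194 TMM-scaled CPM and covers counting error only. The alternatives were DESeq2 1.42.0, limma 3.58.1 (voom on counts, trend on log2 FPKM with 1 or 0.1 added, genes averaging at least 0.1 FPKM), RLE factors, library totals, other filters, no robust option, counts divided by 4, each library left out, and the replicate number as a block. Scripts were tested on simulated counts. The genes and lists were chosen with earlier results of these data known. The 10 genes were all named, as was each other integrin subunit averaging at least 1 CPM, and from each other list those that passed and the 3 with the highest CPM; other genes are said to have been named after their values were seen.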

Additional observations from a re-analysis of the deposited data

How the results depend on the processing

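Direction and call were the same as reported for 155 of 160 combinations of the 10 genes with 16 alternatives, the crossed block below included. The 5 others were Itgb2 and Itga4, called by DESeq2 only, and the log2 fold changes that changed sign, all small or unsettled: without knockdown replicate 1 and without knockdown replicate 2 they were -0.45 and 0.53 for Itgav, -0.20 and 0.029 for Itgam and -0.16 and 0.048 for Itga5. The cause was not tested. For Itgb2 the log2 fold change ranged from -0.53 to -0.35 with 1 library left out. Of the 10 genes, 0 were called by edgeR and 2 by DESeq2, and 0 with each library left out. Of all genes, 150 were called by edgeR, 806 by DESeq2, 65 by limma-voom, 7 without the robust option, 297 with no filter on low counts, 3 and 4 with limma-trend on FPKM with 1 and 0.1 added, and 41 to 112 with 1 library left out (41 without control replicate 2, 42 without knockdown replicate 2, 62 without control replicate 1). In those fits the lone library of a group is assumed to vary like the others. With no filter on low counts 1 of the other integrin subunits was called, and without knockdown replicate 1, 1 of 20 tested integrin ligands, both lower in knockdown; DESeq2's calls in the lists stand with each list. With the replicate number as a block, edgeR called 0 of all genes and 0 of the 10 (2055 and 3 at an unadjusted p under 0.05). Deviations of same-numbered libraries had a correlation of 0.051 over 15733 genes (-0.11 over 8906 genes of at least 10 CPM). Neither this correlation nor the labels can tell whether same-numbered libraries shared a culture or a preparation. A crossed block, added after the data were seen, gave 119 calls and 0 of the 10. At this depth the 10 genes had 1350 to 20711 counts a library, with a fragment taken as about 4 counts.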

Other observations

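Other receptors of leukocyte adhesion, tetraspanins and integrin partners gave no called gene. Of 22 listed, 19 were tested and 0 were called by edgeR, against 0.953% of all genes. The unadjusted edgeR p was under 0.05 for 3 with higher and 1 with lower values, against 7.52% and 6.7% of all genes. The median log2 fold change of the list was 0.10, against -0.01 for all genes. Limma-voom and DESeq2 also called 0, against 0.413% and 5.22% of all genes. The tetraspanin Cd63 had 617 ± 28.0 CPM in knockdown and 590 ± 58.8 CPM in control libraries (SD, n = 2 each). Bsg, basigin, had 362 and 460 CPM in knockdown libraries and 345 and 332 CPM in controls, with a log2 fold change of 0.28 ± 0.12 (SE, adjusted p = 0.370 by edgeR). Slc3a2, the CD98 heavy chain that binds beta 1 tails, had 221 and 230 CPM in knockdown libraries and 251 and 262 CPM in controls, with a log2 fold change of -0.18 ± 0.07 (SE, adjusted p = 0.299 by edgeR). Alcam, a receptor for CD6 chosen after its values were seen, had 33.5 and 30.9 CPM in knockdown libraries and 16.7 and 25.7 CPM in controls, and its log2 fold change of 0.60 ± 0.21 (SE) had an adjusted p of 0.289 by edgeR.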
